A study of Mus with 6 samples.

Results

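The genes examined here are markers of the choroid plexus and of the ependyma, without transthyretin (Ttr), in the hippocampus of mice loaded with forced swim stress (FSS). They were taken from a list of 39 gene symbols. A member was represented by the array row with exactly 1 gene symbol, and where it had several such rows, by the brightest on average. Of the 39 genes, 38 were measured, among 21789 rows with 1 symbol. They comprised 21 genes of the choroid plexus, 14 genes of motile cilia and 3 genes of secreted proteins of the ependyma. The remaining choroid plexus gene, 1500015O10Rik, had no such row and was not analysed here.

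Hippocampus was compared between 3 FSS mice and 3 control mice, with 1 mouse on each 1-colour Mouse Gene ST array. FSS mice swam for 11 min per day on 5 days in water at 25 °C, control mice did not swim, and all were male C57BL/6JJmsSlc mice labelled as 10 to 11 weeks old. By the methods, the mice compared were drawn at random from a larger number run on arrays, and the schedule of the study placed a tail suspension test between the swims and the collection of tissue. Levels are log2 values made by robust multi-array averaging (RMA), which corrects background, equalises the arrays and summarises the probes of a gene.

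The choroid plexus is a folded epithelium within the ventricles that secretes cerebrospinal fluid. Its cells move water and ions across their apical and basal membranes and make carrier proteins, of which Ttr is the best known. Ependymal cells line the ventricle wall and carry tufts of motile cilia that stir the fluid. Neither cell type belongs to the hippocampus proper, but both lie against it along the lateral ventricle, and the choroid plexus is attached near the fimbria. In whole tissue, fewer cells of a type and less RNA per cell cannot be told apart.

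None of the 38 members was higher or lower in FSS mice at an unadjusted p under 0.05 from limma, a linear model that moderates the variance of each gene with that of all genes. Over all rows tested, 2.49% were higher and 2.66% were lower at this threshold. The adjusted p was 0.943 or more for every member. No member passed the thresholds of the study's methods, a log2 fold change over 0.5 in size with an unadjusted p under 0.05, which 0.0688% of all rows did. Nor did any member separate the groups. All FSS mice lay above all control mice in 6.02% of rows and below them in 4.25%, but in 0 of the 38 members either way. By the methods' t-test, which uses the variance of each gene alone, 0 of the 21 choroid plexus members and 0 of the 14 ciliary members passed as well.

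The differences were small beside the spread between mice. The log2 fold change (FSS minus control) lay between -0.12 and 0.25 for choroid plexus members, between -0.18 and 0.18 for ciliary members and between 0.0068 and 0.23 for the secreted proteins. Choroid plexus members had a median of -0.0035, with 10 above 0 and 11 below, and ciliary members a median of 0.0058, with 8 above 0 and 6 below. The median over all rows was 0.0049. In 35 of the 38 members the fold change was smaller than the range within the 3 FSS mice, and in 36 it was smaller than the range within the 3 control mice. The 95% interval of the log2 fold change lay within 0.5 on either side of 0 for 34 of the 38 members. Of the 21789 rows tested, 21020 had such an interval. The exceptions among the members were Kcnj13, Otx2, Dnah12 and Rarres2. A change of the size that the methods ask for was therefore outside the interval for most members, as for most rows. How small a change lay outside differed between members, with intervals from -0.073 to 0.14 for Kl and from -0.74 to 0.49 for Kcnj13. This holds for the array values. Of the 38 members, 33 lay under the median level of all rows, and the part of signal level in the intervals was not tested.

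**Figure D1:**
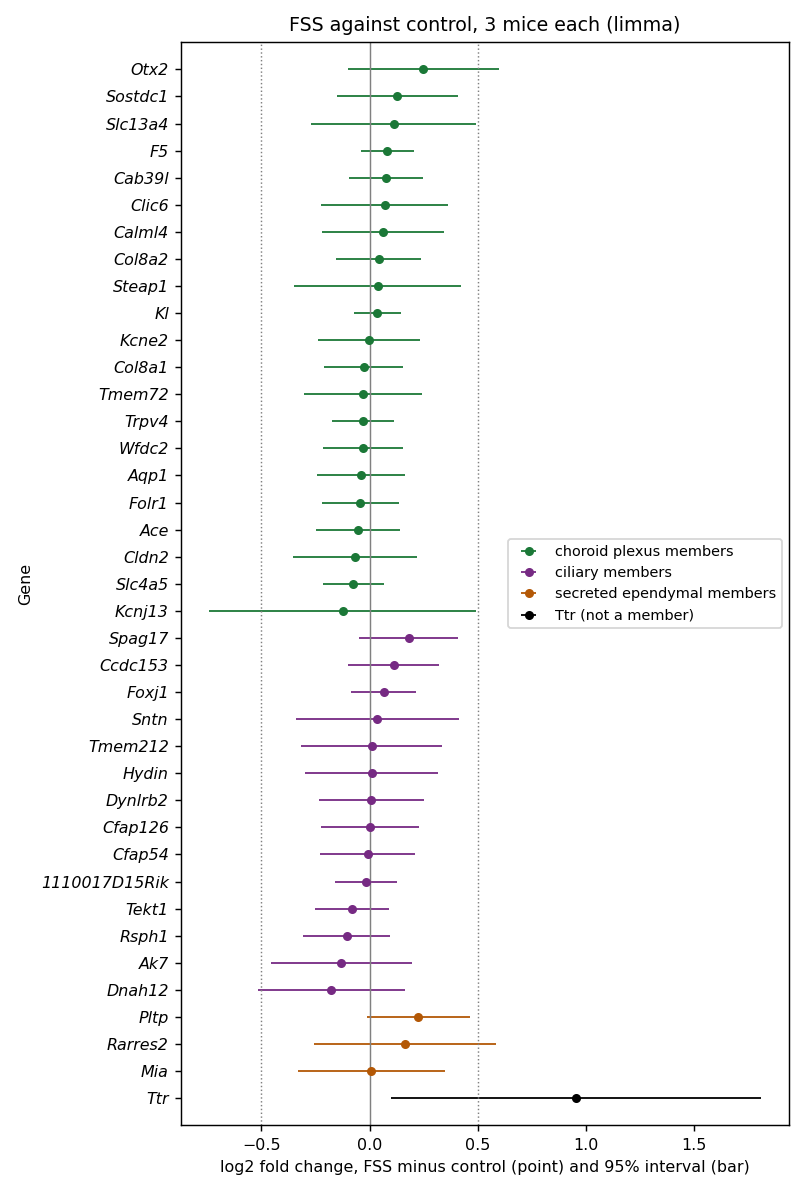
Log2 fold change of each member (x axis, FSS minus control, 3 mice each) with its 95% interval from limma, for choroid plexus, ciliary and secreted ependymal genes (y axis) and for Ttr, which is not a member, with dotted lines at -0.5 and 0.5. The intervals of all 38 members include 0, and their highest upper end is 0.60, for Otx2.

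Ttr, which was left out of the list, had log2 levels of 9.74, 9.00 and 9.21 in FSS mice 1, 2 and 3, and 8.62, 8.91 and 7.56 in control mice 1, 2 and 3. This gave a log2 fold change of 0.95 (standard error, SE, 0.36, unadjusted p = 0.033 and adjusted p = 0.943 from limma). This was the highest log2 fold change of the 21789 rows tested. Of these rows, 21020 had a 95% interval within 0.5 on either side of 0. For all 38 members the upper end of the 95% interval, at most 0.60, was below the value of Ttr. An upper end below the highest value of all rows is not particular to the members. The interval of Ttr itself reached down to 0.10, and the difference between Ttr and the members was not tested. Ttr also lay above the median level of all rows (percentile 69.1), unlike most members. Among the FSS mice the order differed, since mouse 2 had the lowest Ttr level and the highest mean level of the choroid plexus members. Among the control mice the order was the same for both, with mouse 2 highest and mouse 3 lowest.

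Of the 9 members with a role in ion and solute transport and in the tight junctions of the epithelium, 2 had a log2 fold change above 0 and 7 below, with a median of -0.041. Kcnj13 encodes the inwardly rectifying potassium channel Kir7.1 of the apical membrane. Its log2 levels were 6.89, 7.78 and 6.88 in FSS mice 1, 2 and 3, and 7.27, 7.59 and 7.07 in control mice 1, 2 and 3. FSS mouse 2 was the highest of all 6 mice and the other FSS mice were the lowest, so the control mice lay between them. The level averaged 7.18 ± 0.52 in FSS mice and 7.31 ± 0.26 in control mice (SD, n = 3 each), which gave a log2 fold change of -0.12 (SE 0.26 and adjusted p = 0.984 from limma). Its range of 0.90 over the 6 mice was the widest of the members. Omission of FSS mouse 2 took it to -0.42, past the unadjusted limma threshold (adjusted p = 0.657), and omission of FSS mouse 3 to 0.027.

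Slc13a4, a sodium-coupled sulfate transporter, showed the same high mouse. Levels were 7.10, 7.79 and 7.42 in FSS mice 1, 2 and 3, and 7.33, 7.39 and 7.27 in control mice 1, 2 and 3. FSS mice therefore spanned the whole range, with FSS mouse 1 lowest and FSS mouse 2 highest. The log2 fold change was 0.11 (95% interval -0.27 to 0.49) and turned to -0.066 without FSS mouse 2. Cldn2, the claudin that forms a cation pore in tight junctions of the epithelium, was likewise highest in FSS mouse 2. Its levels were 5.37, 5.72 and 5.24 in FSS mice, and 5.52, 5.59 and 5.42 in control mice. The log2 fold change was -0.067 with all mice and -0.20 without FSS mouse 2, where it was past the unadjusted limma threshold (adjusted p = 0.657). Kcnj13 and Cldn2 were the 2 choroid plexus members that were lower without that mouse, at a threshold that 4.18% of all rows then passed in this direction.

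Among the other transport genes, Kcne2, a regulatory subunit of potassium channels, had a log2 fold change of -0.0035 (95% interval -0.24 to 0.23). For the water channel Aqp1 it was -0.041 (95% interval -0.24 to 0.16), and for Slc4a5, a sodium bicarbonate cotransporter, it was -0.075 (95% interval -0.22 to 0.065). Folr1, the folate receptor that carries folate into the cerebrospinal fluid, gave -0.043 (95% interval -0.22 to 0.13), and Trpv4, a cation channel that responds to osmotic change, gave -0.032 (95% interval -0.17 to 0.11). Clic6, of the chloride intracellular channel family, was lowest in FSS mouse 2 and highest in FSS mouse 1, with a log2 fold change of 0.069 (95% interval -0.22 to 0.36).

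**Figure D2:**
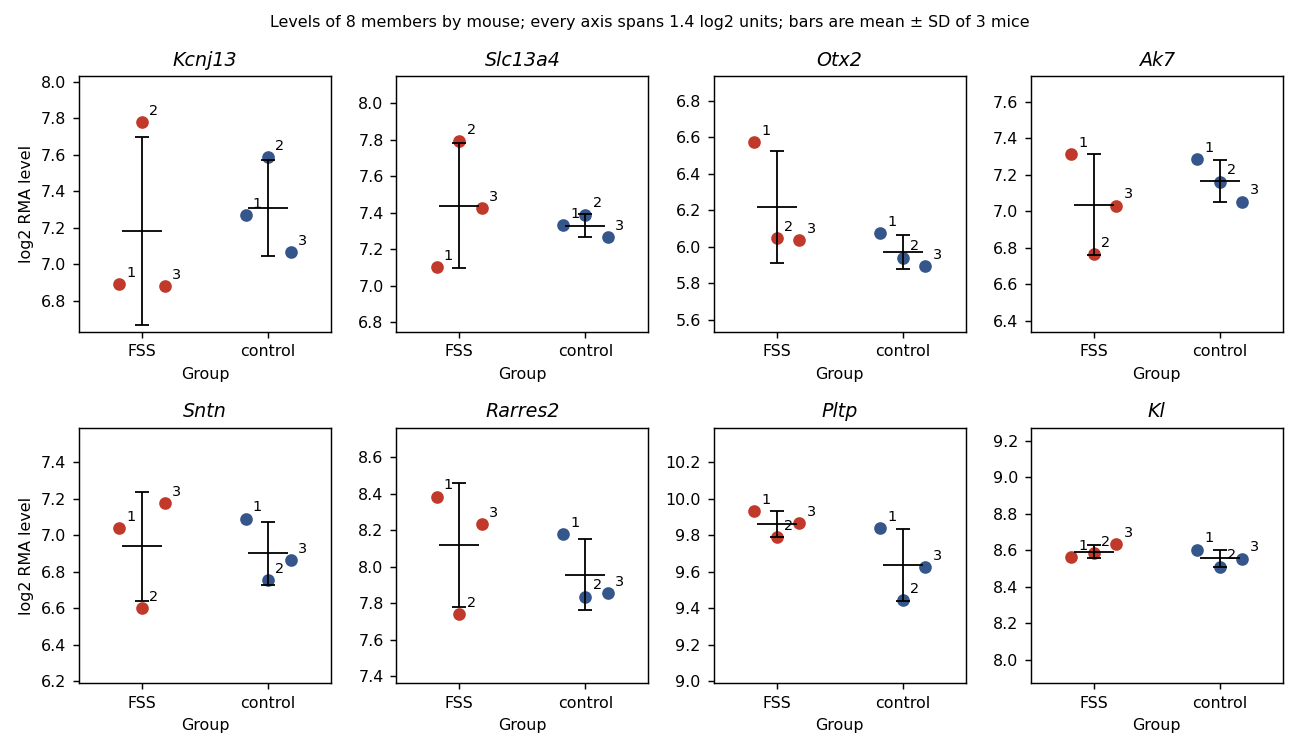
Log2 RMA level (y axis) of 8 members by mouse in FSS and control mice (x axis), where points are mice, numbered within their group, bars show mean ± SD (3 mice), while each y axis spans the same width of 1.4. FSS mouse 2 is highest for Kcnj13 (7.78) and Slc13a4 (7.79) and lowest for Ak7, Sntn and Rarres2.

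Of the 8 regulators and secreted or matrix proteins of the choroid plexus, 5 had a log2 fold change above 0 and 3 below. Otx2 is a homeobox transcription factor needed to form and maintain the choroid plexus. Its levels were 6.57, 6.05 and 6.04 in FSS mice 1, 2 and 3, and 6.08, 5.94 and 5.90 in control mice 1, 2 and 3. FSS mouse 1 alone stood high, and the other FSS mice lay between control mouse 1 and the other control mice. The log2 fold change of 0.25 (limma adjusted p = 0.943, SE 0.15) was the highest of the 38 members and was 0.072 without FSS mouse 1. Sostdc1, a secreted antagonist of bone morphogenetic protein and Wnt signals, had levels of 7.52, 7.60 and 7.67 in FSS mice and 7.56, 7.19 and 7.65 in control mice. Here control mouse 2 was low and the other 5 mice were close together. The log2 fold change was 0.13 (95% interval -0.15 to 0.41) and -0.0096 without control mouse 2.

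Kl encodes klotho, a membrane protein and coreceptor for a fibroblast growth factor that is abundant in the choroid plexus and also present in hippocampal neurons. Its level varied least of all members. FSS mice had 8.56, 8.58 and 8.63, and control mice 8.60, 8.51 and 8.55, a range of 0.12 over all mice. The groups overlapped, and the log2 fold change of 0.036 had a 95% interval from -0.073 to 0.14. Ace, the angiotensin-converting enzyme, had levels of 7.56, 7.54 and 7.58 in FSS mice and 7.48, 7.79 and 7.56 in control mice, among which control mouse 2 was high. Its log2 fold change was -0.054 (95% interval -0.25 to 0.14). F5, the gene of coagulation factor V, had levels of 5.70, 5.72 and 5.62 in FSS mice and 5.55, 5.60 and 5.66 in control mice. FSS mouse 3 and control mouse 3 overlapped, and the log2 fold change was 0.081 (limma adjusted p = 0.945, SE 0.051). The 2 chains of type VIII collagen gave -0.027 (Col8a1) and 0.041 (Col8a2), and the protease inhibitor gene Wfdc2 gave -0.032 (log2 fold change).

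The other 4 choroid plexus members are Cab39l, Calml4, Steap1 and Tmem72. Cab39l, which encodes a scaffold of the LKB1 kinase complex, had levels of 8.70, 8.50 and 8.70 in FSS mice and 8.47, 8.56 and 8.64 in control mice. FSS mouse 2 lay among the control mice, and the log2 fold change was 0.075 (95% interval -0.096 to 0.25). Cab39l and Kl were the 2 choroid plexus members above the median level of all rows. The other 19 lay below it. Calml4, a calmodulin-like gene, gave a log2 fold change of 0.062, Steap1, of a family of metalloreductases, 0.037, and the membrane protein gene Tmem72 -0.030.

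**Figure D3:**
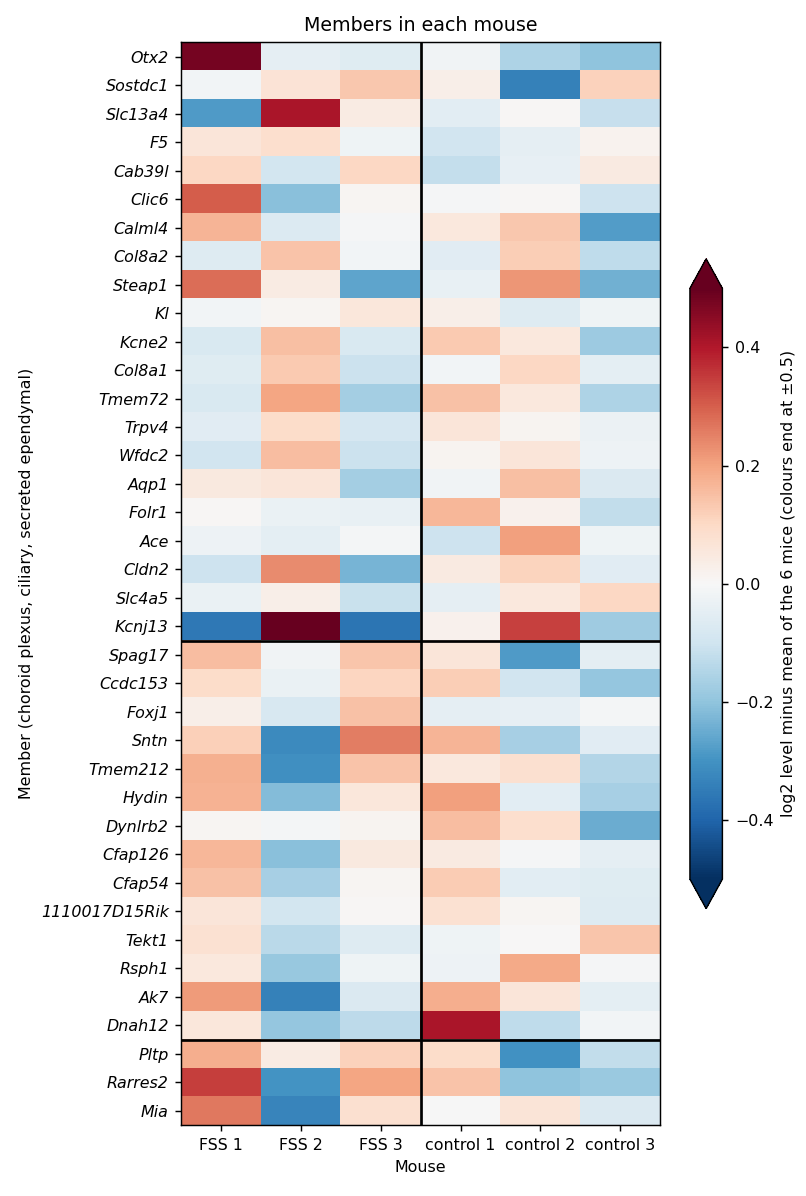
Log2 level of each of the 38 members (y axis) in each mouse (x axis), as the difference from the mean of the 6 mice, with red above and blue below and horizontal lines between the choroid plexus, ciliary and secreted ependymal genes, ordered by log2 fold change within each. FSS mouse 2 is the lowest mouse for 11 of the 14 ciliary genes and for Rarres2 and Mia, whereas Pltp is lowest in control mouse 2. Kcnj13 and Slc13a4 are red in FSS mouse 2.

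Among the ciliary members, the master regulator is Foxj1, a forkhead transcription factor that switches on the genes of motile cilia. It had levels of 6.92, 6.81 and 7.03 in FSS mice and 6.84, 6.85 and 6.88 in control mice. Control mice were close to one another, FSS mouse 2 lay just below them and the other FSS mice above. The log2 fold change was 0.065 (limma adjusted p = 0.971, SE 0.063). The 8 genes of axonemal motors and structure were split evenly, with 4 log2 fold changes above 0 and 4 below. Spag17, a protein of the central pair of microtubules, had 5.74, 5.57 and 5.73 in FSS mice and 5.65, 5.31 and 5.54 in control mice. Its log2 fold change of 0.18 (limma adjusted p = 0.943, SE 0.096) was the highest of the ciliary members, although control mouse 1 lay above FSS mouse 2.

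Dnah12, an axonemal dynein heavy chain, had the lowest log2 fold change of all members. Levels were 6.33, 6.08 and 6.14 in FSS mice and 6.68, 6.14 and 6.26 in control mice, and control mouse 1 alone was high. On the log2 scale the fold change was -0.18 (95% interval -0.52 to 0.16), or -0.017 without control mouse 1. A second row of the array for Dnah12 gave -0.033. Cfap54, another protein of the central pair, had 8.41, 8.10 and 8.27 in FSS mice and 8.39, 8.21 and 8.20 in control mice, and it was the only ciliary member above the median level of all rows. Its log2 fold change was -0.0090 (95% interval -0.23 to 0.21), and its second row gave -0.042. Rsph1, of the radial spoke head, had 6.97, 6.73 and 6.90 in FSS mice and 6.89, 7.11 and 6.91 in control mice. The highest level was that of control mouse 2, and the log2 fold change was -0.11 (95% interval -0.31 to 0.096). Log2 fold changes were -0.081 for the tektin Tekt1, 0.0089 for the central pair protein Hydin, 0.0078 for the dynein light chain Dynlrb2 and 0.0039 for Cfap126, which is also called Flattop.

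Of the remaining ciliary members, Ak7 encodes an adenylate kinase of motile cilia. It had levels of 7.31, 6.76 and 7.03 in FSS mice 1, 2 and 3, and 7.28, 7.16 and 7.05 in control mice 1, 2 and 3. FSS mouse 2 was clearly lowest and FSS mouse 1 highest. This left a log2 fold change of -0.13 (SE 0.14 and adjusted p = 0.971 from limma), and it was 0.0060 without FSS mouse 2 and -0.27 without FSS mouse 1, where it was past the unadjusted threshold. Ccdc153, a coiled-coil gene used as an ependymal marker, had 7.64, 7.51 and 7.65 in FSS mice and 7.67, 7.45 and 7.35 in control mice. Control mouse 1 was highest of all, the log2 fold change was 0.11 (95% interval -0.098 to 0.32), and it was 0.20, past the unadjusted threshold, without control mouse 1. Tmem212, a membrane protein gene of ciliated cells, had 7.33, 6.85 and 7.30 in FSS mice and 7.21, 7.24 and 7.01 in control mice, with a log2 fold change of 0.0092. On the log2 scale FSS minus control was 0.036 for Sntn, the gene of the ciliary tip protein sentan, and -0.016 for 1110017D15Rik. The levels of 1110017D15Rik were 7.65, 7.49 and 7.59 in FSS mice and 7.66, 7.59 and 7.52 in control mice.

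The 3 secreted proteins all had log2 fold changes above 0, and none passed. Pltp encodes phospholipid transfer protein, which moves phospholipids between lipoproteins and is made by several cell types of the brain. Its levels were 9.93, 9.79 and 9.87 in FSS mice and 9.84, 9.45 and 9.63 in control mice. Control mouse 1 lay between FSS mouse 2 and FSS mouse 3, and the other control mice lay below every FSS mouse. With 9.86 ± 0.071 in FSS mice and 9.64 ± 0.20 in control mice (SD, n = 3 each), the log2 fold change was 0.23 (95% interval -0.012 to 0.46, unadjusted p = 0.060 and adjusted p = 0.943 from limma). This was the smallest unadjusted p of the members. Pltp passed the unadjusted threshold in 4 of 17 settings, which include the main fit, where it did not pass. These 4 were without control mouse 1, with the replicate number as a block, with a trend and robust moderation of the variance together, and without dim rows. In that order, 2.9%, 3.23%, 3.47% and 4.81% of the rows tested were higher there, against 2.49% in the main fit.

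Rarres2, the gene of the secreted protein chemerin, had levels of 8.39, 7.74 and 8.24 in FSS mice and 8.18, 7.84 and 7.85 in control mice. FSS mouse 2 was lowest and the other FSS mice were highest. With all mice its log2 fold change was 0.16 (limma adjusted p = 0.971, SE 0.18). It was 0.35, past the unadjusted limma threshold, without FSS mouse 2 (adjusted p = 0.657), a setting where 3.42% of all rows were higher. Mia, a small secreted protein first described in melanoma and cartilage, had 5.69, 5.09 and 5.50 in FSS mice and 5.42, 5.49 and 5.35 in control mice. It too was lowest in FSS mouse 2 and highest in FSS mouse 1, with log2 fold changes of 0.0068 with all mice and 0.17 without FSS mouse 2.

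Across the members, FSS mouse 2 often lay at one end of the FSS mice. Its level was below that of both other FSS mice in 14 of 14 ciliary members and 3 of 3 secreted proteins, against 40.2% of all rows and 22.6% of rows under the median level. It was the lowest of all 6 mice in 11 of the 14 ciliary members, against 17.9% of all rows. Against the mean of FSS mice 1 and 3, the median ciliary member was lower by 0.19 on the log2 scale in FSS mouse 2, and Sntn was at 0.70 of their level. Sntn had 7.04, 6.60 and 7.18 in FSS mice and 7.09, 6.75 and 6.86 in control mice. In the choroid plexus members FSS mouse 2 was more often the high one. It was above both other FSS mice in 12 of 21, against 33.7% of all rows and 49.3% of rows under the median level, and it was the highest of all 6 mice in 10 of 21, against 15.2% and 21.2%. Kcnj13 was 1.86-fold and Slc13a4 1.44-fold higher in FSS mouse 2 than in the mean of the other FSS mice. These counts describe 1 mouse that was noticed in the data, and they were not tested.

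The mean level of the 14 ciliary members was 6.96, 6.69 and 6.90 in FSS mice 1, 2 and 3, and 6.96, 6.83 and 6.79 in control mice 1, 2 and 3. FSS mouse 2 was lowest, and FSS mouse 1 and control mouse 1 were equal at the top. The mean of the 21 choroid plexus members was 6.57, 6.65 and 6.49 in FSS mice, and 6.57, 6.61 and 6.48 in control mice. In each group mouse 2 was highest and mouse 3 lowest, and the groups averaged 6.57 ± 0.079 (FSS) and 6.55 ± 0.066 (control; SD, n = 3 each). Without FSS mouse 2, 11 of 14 ciliary log2 fold changes were above 0, with a median of 0.091, and 13 of 21 choroid plexus log2 fold changes were below 0, with a median of -0.044.

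**Figure D4:**
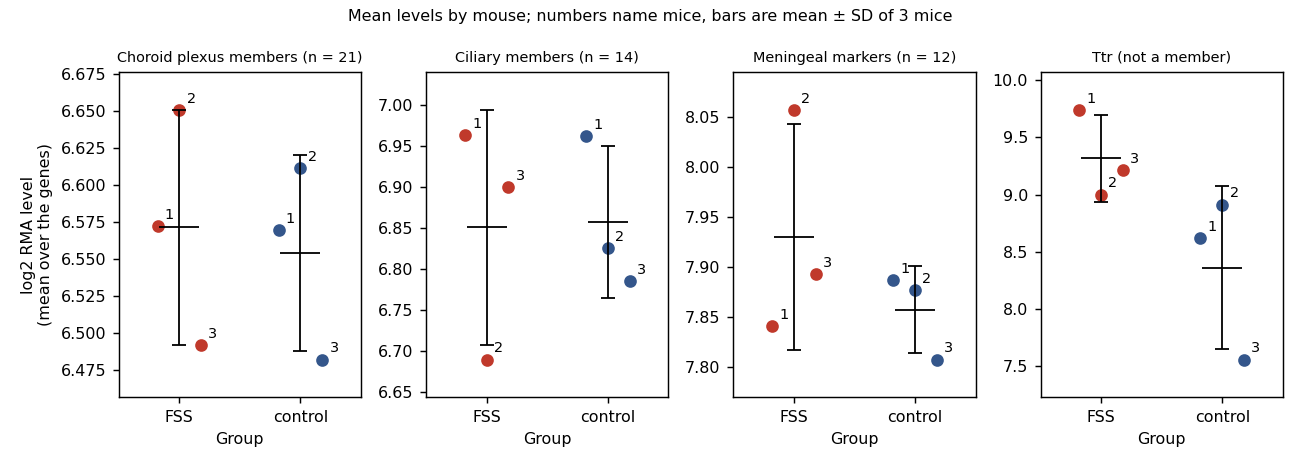
Mean log2 RMA level (y axis) over the choroid plexus members, the ciliary members and the meningeal markers, and the level of Ttr, by mouse in FSS and control mice (x axis), where points are numbered mice, bars show mean ± SD (3 mice), while y axes differ. FSS mouse 2 is highest for choroid plexus members (6.65) and meningeal markers (8.06) and lowest for ciliary members (6.69).

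**Figure D5:**
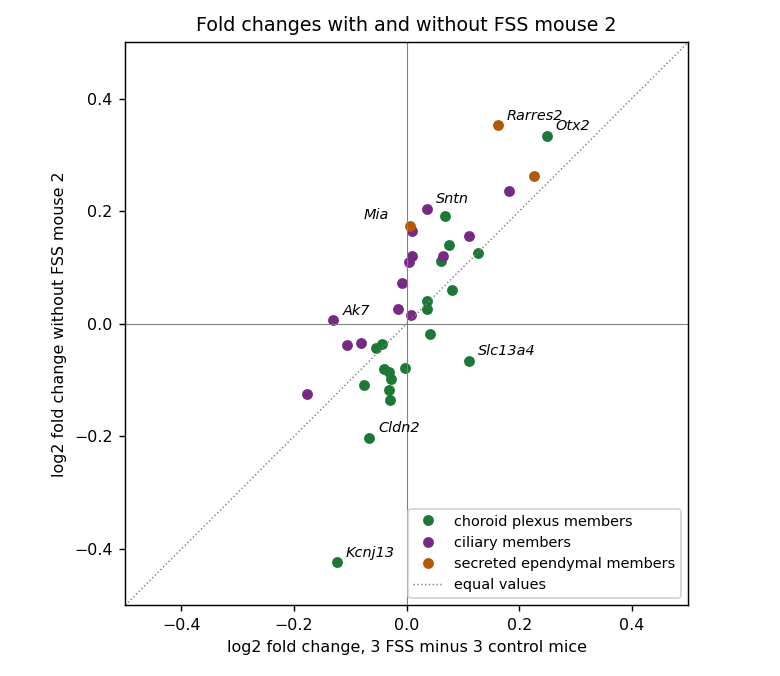
Log2 fold change of each member with all mice (x axis) and without FSS mouse 2 (y axis), with the dotted line at equal values. Points above the line are genes lower in FSS mouse 2 than in the mean of the other FSS mice, and Kcnj13 moves to -0.42 and Rarres2 to 0.35 without that mouse.

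Markers of other tissues differed between mice too, some of them with FSS mouse 2 at one end. The 12 markers of meninges and fibroblasts averaged 7.84, 8.06 and 7.89 in FSS mice and 7.89, 7.88 and 7.81 in control mice, and 8 of the 12 were highest in FSS mouse 2. Markers of thalamus and habenula averaged 7.60, 7.47 and 7.51 in FSS mice and 7.55, 7.60 and 7.51 in control mice, and were lowest in that mouse. Endothelial and mural markers averaged 7.81 to 7.92 in FSS mice and 7.73 to 7.86 in control mice, highest again in FSS mouse 2 and lowest in control mouse 2. The 12 markers of hippocampal neurons averaged 9.65 to 9.69 in FSS mice and 9.57 to 9.67 in control mice, lowest in control mouse 2. Of these 12, 11 were above the median level of all rows. The part of all these markers in the levels of the members was not tested.

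The arrays differed in the spread of their values as well. The SD over all rows was 2.22 to 2.23 for FSS mouse 2 and control mice 1 and 2, and 2.26 to 2.27 for the other arrays, while the array medians differed by at most 0.032. Of rows under the median level, 17.9% had the 3 narrow arrays highest and 3.02% had them lowest. The 3 narrow arrays were the 3 highest in 7 of 21 choroid plexus members, against 10.7% of all rows. These 7 were Kcnj13, Col8a1, Kcne2, Tmem72, Trpv4, Wfdc2 and Cldn2. Of the ciliary members, 0 of 14 had this order. With the spread as a block, the median log2 fold change was 0.034 for choroid plexus members and -0.034 for ciliary members, and none of either passed an unadjusted limma p of 0.05. Within the 3 narrow arrays, with 1 FSS mouse, the median difference was 0.055 for choroid plexus members and -0.22 for ciliary members. Within the 3 wide arrays, with 1 control mouse, it was 0.011 and 0.14. The ciliary difference thus had opposite signs in the 2 sets of arrays. It was below 0 in 13 of 14 members in the narrow arrays and above 0 in 12 of 14 in the wide arrays. The FSS mouse of the narrow set was FSS mouse 2, already described as low in the ciliary members. Among the FSS mice, array spread and that mouse therefore cannot be told apart.

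Other genes of both cell types were compared in the same way, from lists of 35 choroid plexus and 60 motile cilia genes that are not members. The 32 measured choroid plexus genes had a median log2 fold change of 0.041. Of them, 3 were higher and 2 lower in FSS mice (unadjusted p under 0.05 from limma), against 2.49% and 2.66% of all rows. All 5 had an adjusted p of 0.943. The higher genes were Igfbp2, which binds insulin-like growth factors (log2 fold change 0.36), Slc29a4, a monoamine transporter (0.19), and Bmp6, a bone morphogenetic protein (0.17). Igfbp2 had levels of 7.53, 7.90 and 7.59 in FSS mice and 7.23, 7.34 and 7.37 in control mice, without overlap, and was highest in FSS mouse 2. The lower genes were Krt18, a keratin of simple epithelia (-0.23), and Ezr, which links membrane to actin in microvilli (-0.16). Among the fits without 1 mouse, Slc29a4 did not pass except without FSS mouse 3 or control mouse 1. Among these same fits, Bmp6 passed only without FSS mouse 1. Over the alternative settings the count of higher genes was between 1 and 6, and the cause was not tested.

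Of 59 measured motile cilia genes, 4 were lower and 0 were higher by limma at the same threshold, against 2.66% and 2.49% of all rows. The median log2 fold change of the 59 genes was -0.016. It was below 0 in 36 of them, against 10245 of the 21789 rows tested. The lower genes were Drc1, of the nexin-dynein regulatory complex (-0.27), Tekt4 and Tekt2, which are tektins of the axonemal wall (-0.22 and -0.19), and Rsph9, of the radial spoke head (-0.12). Their adjusted p was 0.943. Drc1 had levels of 6.27, 6.36 and 6.49 in FSS mice and 6.59, 6.78 and 6.57 in control mice, so that every FSS mouse was below every control mouse. Here FSS mouse 2 was not the lowest, unlike in most ciliary members. Without FSS mouse 2, 3 motile cilia genes were higher, in a setting where 3.42% of all rows were. Without FSS mouse 3, without control mouse 1 and by the methods' t-test, 2 genes were lower in place of 4. Drc1 and Rsph9 were the 2 by the methods' t-test. Without dim rows 1 was lower, Rsph9, and the other 3 lay under the median level and were not tested there. FSS mouse 2 was the lowest of all mice in 28 of the 59 genes, against 17.9% of all rows. It lay below both other FSS mice in 39, against 40.2% of all rows.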

How the data were processed

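Total RNA of hippocampus from 6 mice was hybridised by the authors to GeneChip Mouse Gene 1.0 ST arrays. The deposited values are log2 levels per transcript cluster that the authors made by RMA in the Affymetrix Expression Console (the labels give no version). The table has 28944 rows, of which 21789 have 1 gene symbol in the annotation of the array, 1621 have several and 5534 are unnamed here. Several-symbol rows named no gene. All 38 members matched RefSeq genes of the mouse by gene ID. No sequence or coordinate was used, and the planned search of promoters was not run.

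FSS minus control was fitted over the 21789 rows with limma 3.58.1 (lmFit and eBayes, no covariate) in R 4.3.3, with Benjamini-Hochberg adjustment over all rows. The fit was checked on simulated data. Groups of 3 limit the precision, and an exact permutation test gives no p under 0.1. The members and lists were chosen with earlier results of these data known. Levels in every mouse are given for members past the unadjusted threshold or without overlap (0), for the 5 choroid plexus and 5 ciliary members with the largest absolute fold change, the 5 and 4 with the highest level, the 4 with the widest range and the 3 secreted proteins, and also for Foxj1, Cldn2 and Sntn, chosen after their values were seen. Alternatives covered normalization, dim rows, all rows, the row per gene, variance models, the methods' t-test, array weights, blocks, thresholds and omission of each mouse. Of the lists of other choroid plexus and motile cilia genes, those past the unadjusted threshold are named. Of the tissue markers, 1 of 12 for hippocampal neurons (Prox1) and 1 of 12 for meninges and fibroblasts (Lum) passed it. So did 1 of 13 for endothelial and mural cells (Acta2), and none for thalamus and habenula. Those that passed were higher in FSS mice, as were 2.49% of all rows.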

Additional observations from a re-analysis of the deposited data

How the results depend on the processing

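The count of members past the thresholds of the methods was 0 in every other fit and without each mouse. Other thresholds on the same fit (0.25 in place of 0.5 for the log2 fold change, or a p under 0.01) could only give 0, since no member passed p under 0.05 there. With the replicate number as a block, 1 choroid plexus member (Otx2) and 1 ciliary member (Spag17) were past the unadjusted limma threshold, both higher, where 3.23% of all rows were higher and 3.63% lower. The numbers do not pair the mice by any label, and the correlation of same-numbered deviations was -0.048, 0.14 and 0.24, with FSS mouse 1 closer to control mouse 3 (0.060) than to control mouse 1. Without each mouse in turn, 0 to 2 choroid plexus members were lower (2 without FSS mouse 2, with 4.18% of all rows lower) and 0 were higher, and 0 to 2 ciliary members were higher (2 without control mouse 1, Spag17 and Ccdc153, with 2.9% of all rows higher) and 0 to 1 lower (Ak7 without FSS mouse 1, with 2% of all rows lower). Medians of the log2 fold change ranged from -0.054 to 0.034 for choroid plexus members and from -0.077 to 0.091 for ciliary members without each mouse. Without dim rows, 2 choroid plexus members and 1 ciliary member were left.

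Single members changed sign in some settings, none of them past the threshold on both sides. Blocking on array spread gave log2 fold changes of 0.085 for Kcnj13, -0.060 for Mia and -0.034 for Tmem212, and array weights gave 0.0075 for Cfap54. Without each mouse it ranged from -0.42 to 0.027 for Kcnj13, -0.12 to 0.17 for Mia, -0.078 to 0.16 for Tmem212, -0.084 to 0.073 for Cfap54, -0.051 to 0.027 for 1110017D15Rik, -0.27 to 0.0060 for Ak7, -0.066 to 0.28 for Slc13a4, -0.12 to 0.036 for Ace and -0.0096 to 0.22 for Sostdc1. The cause was not tested. Of the 38 members, 25 changed sign in at least 1 alternative. Of the 38, 33 lie under the median level of all rows, and the part of signal level in the calls was not tested.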
